A study of Mus musculus with 10 samples.

Results

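Alveolar type 2 cells make pulmonary surfactant, the film of lipids and proteins that lowers surface tension in the alveoli and keeps them open. They store it in lamellar bodies, secrete it, and also serve as progenitors of the flat alveolar type 1 cells. CpG methylation at gene starts is usually low where a start is CpG-rich, whereas CpG-poor promoters are often methylated in cells that do not use the gene. Gene bodies are commonly methylated, in transcribed genes as well. CpG methylation was examined here at 10 genes of these cells, chosen by name: the surfactant proteins Sftpc, Sftpb, Sftpa1 and Sftpd, the lamellar body genes Abca3 and Lamp3, the protease Napsa, the surfactant lipid enzyme Lpcat1, and the transcription factors Nkx2-1 and Etv5. A window belonged to a gene when it overlapped the RefSeq gene span on GRCm38 or the 5 kb on either side of it. Of the 446336 windows measured by the capture, 189 met this rule and 8 of the 10 genes had at least 1, while Sftpd and Lamp3 had none and are not described further.

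Lung DNA came from female BALB/c mice, 8 weeks old when obtained, in 3 groups. The saline group (n = 3) received saline only. The OVA-induced group (n = 3) was sensitized by intraperitoneal injection of 50 µg of ovalbumin with alum and challenged intranasally with 25 µg, which produces allergic lung inflammation, and was given vehicle by mouth. The DSE-treated group (n = 4, named Herb in the labels) received the same ovalbumin and 200 mg/kg of an ethanol extract of Descurainia sophia seeds by mouth. Methyl-seq, a capture of selected regions followed by bisulfite conversion, counted CpG calls, methylated or not, in windows of 1000 bp that start every 500 bp, so adjacent windows share calls. Each mouse had 306656737 to 410836272 calls over all windows, and the windows of the 8 genes had a median of 686 calls per mouse. A level of 50% has a 95% Wilson interval of 46.3% to 53.7% at 686 calls and of 29.9% to 70.1% at the minimum of 20 calls, for counting error only. Whole lung was used, with no sorting of alveolar type 2 cells, so a change in the mixture of cells and a change of methylation within cells cannot be told apart in any result below. Since methylation is not expression, the cell type of the 10 genes could not be checked against marker levels.

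In saline mice the windows of the 8 genes spanned nearly the whole range of methylation, from 0.632% to 93.3%, with a median of 51.5% over 188 windows with enough calls. The median over the 421759 windows of the series with 20 calls in every mouse was 56.7%. Levels depended on position. The 26 windows within 1 kb of a gene start had a median of 2.53%, against 66.1% for 71 windows in introns, 50.6% for 43 windows that touch an exon and 27.1% for 36 windows downstream of a gene. Etv5 held 77 of the windows, Abca3 32, Lpcat1 23, Sftpc 17, Nkx2-1 14, Napsa 12, Sftpb 9 and Sftpa1 5. The windows of Napsa all lay at or beyond its 3′ end, and their values are not described here beyond the counts over all members. Of the 17 windows of Sftpc, 12 overlapped its neighbour Bmp1, so those values describe the neighbouring gene as much as the member.

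**Figure D1:**
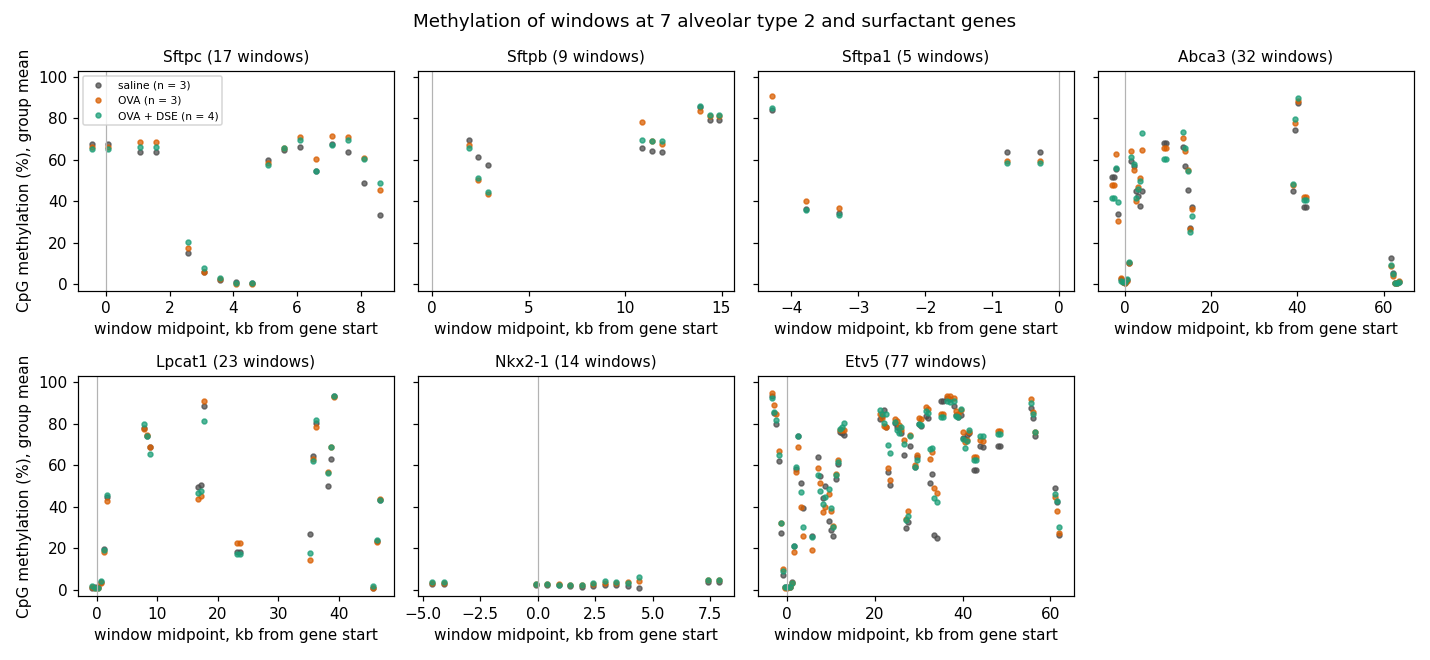
CpG methylation in percent (y axis, group means) of every window of 7 genes, Napsa left out, against the distance in kb of its midpoint from the gene start (x axis, the vertical line marks 0, positive values lie along the transcript). Saline, OVA-induced and DSE-treated mice are grey, orange and green; the windows over the starts of Abca3, Lpcat1, Nkx2-1 and Etv5 sit under 5%, those over the starts of Sftpc and Sftpa1 lie between 58.7% and 67.6%, and the 3 groups lie close together at most windows.

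The windows over gene starts fell into 2 kinds, methylated and unmethylated. Sftpa1, a collectin that opsonises microbes and helps organise secreted surfactant, had a window of the methylated kind. Lpcat1, which acylates lysophosphatidylcholine to the main surfactant lipid, had one of the unmethylated kind. Their promoters are given here. They are the 250 bases upstream of the RefSeq start on GRCm38.p6 (chr14:41131538-41131787 and chr13:73466981-73467230, both on the + strand, written 5′ to 3′), taken from the reference genome and not from these BALB/c mice, and capitals mark CpG.
Sftpa1 promoter: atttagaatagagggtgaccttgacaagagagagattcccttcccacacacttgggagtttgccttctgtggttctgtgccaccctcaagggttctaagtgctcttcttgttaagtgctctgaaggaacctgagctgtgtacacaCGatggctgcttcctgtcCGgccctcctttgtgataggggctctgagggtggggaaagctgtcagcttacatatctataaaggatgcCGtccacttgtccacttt
Lpcat1 promoter: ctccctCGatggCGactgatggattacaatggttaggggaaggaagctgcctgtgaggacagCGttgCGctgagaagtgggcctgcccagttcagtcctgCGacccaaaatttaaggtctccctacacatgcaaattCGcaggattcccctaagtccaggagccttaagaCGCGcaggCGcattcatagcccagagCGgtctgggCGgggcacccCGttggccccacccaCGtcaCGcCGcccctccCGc
The first holds 3 CpGs and the second 16, against a median of 6 over the 32851 promoters of the table. All calls of the window over the Sftpa1 start lay in chr14:41131001-41131500, upstream of the bases shown. The methylation of the 3 CpGs shown for Sftpa1 was thus not measured. RefSeq entries were matched for 7 of the 10 genes. Besides these, Abca3 has 21 CpGs in the same stretch, Nkx2-1 has 9, Sftpb has 7, Lamp3 has 0, and Etv5 has 27 and 18 at its 2 entries. The letters CTCAAG, the core that the factor NKX2-1 is known to bind, were searched on both strands. They occur in the promoters of 2 of the 7 genes, at 2 places in Sftpb and at 1 place in Sftpa1, and in 13.3% of all promoters.

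In the window over the start of Sftpa1 (chr14:41131001-41132000) methylation was 66.4%, 55.6% and 69.5% in the saline group. It was 55.2%, 63.5% and 60.3% under OVA and 55.8%, 57.6%, 55.0% and 66.3% under DSE. The start of Sftpc, the hydrophobic surfactant protein made only by alveolar type 2 cells, was similar (chr14:70523501-70524500), with 67.0%, 64.8% and 71.0% in the saline group, 67.8%, 61.1% and 70.1% under OVA and 60.4%, 62.9%, 59.4% and 78.2% under DSE. The 3 groups overlapped at both starts. Only 9.74% of the 15076 protein-coding genes with a window over their start were above 50% in saline mice, and 64.9% were under 5%. By contrast, the saline means at the starts of Abca3, Lpcat1, Etv5 and Nkx2-1 were 0.784% ± 0.138 (SD, n = 3), 1.24% ± 0.200 (SD, n = 3), 1.07% ± 0.287 (SD, n = 3) and 2.39% ± 0.521 (SD, n = 3). Those of OVA-induced mice were 0.871% ± 0.272 (SD, n = 3), 0.904% ± 0.396 (SD, n = 3), 0.936% ± 0.164 (SD, n = 3) and 2.87% ± 0.651 (SD, n = 3), and those of DSE-treated mice were 0.933% ± 0.245 (SD, n = 4), 0.886% ± 0.217 (SD, n = 4), 1.17% ± 0.372 (SD, n = 4) and 2.83% ± 0.514 (SD, n = 4). None of the 6 start windows was differentially methylated in any comparison, and in none did 2 groups separate. Sftpb and Napsa had no window within 1 kb of their starts.

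The main question was which windows of these genes differed between OVA-induced and saline mice. A differentially methylated region (DMR) is a window with an adjusted p under 0.01 in the logistic likelihood ratio test of pooled calls, with Benjamini-Hochberg adjustment over all windows tested, and a difference of pooled methylation of at least 10 percentage points. Of 187 windows tested, 6 were hyper methylated in OVA-induced mice (3.21%, against 4.75% of all windows) and 4 were hypo methylated (2.14%, against 2.56%). Both shares lay near those of the whole series and a little below them, and whether they differ was not tested. The hyper methylated windows lay at Etv5 (3), Sftpc (2) and Abca3 (1), and the hypo methylated ones at Etv5 (2) and Sftpb (2), in 4 and 2 separate regions. Sftpa1, Lpcat1 and Nkx2-1 had none. This test leaves out the spread between mice. In all 10 windows every OVA-induced mouse lay on one side of every saline mouse. For 3 mice against 3 this gives an exact permutation p of 0.1, the smallest possible. The 10 windows were chosen by the difference between these same mice, so the separation is not independent support. The limma test of M-values in the 2 groups called none of the windows at an adjusted p under 0.05, and none in the whole series. An unadjusted limma p under 0.05 was found in 34 of 187 (18.2%, against 19.2% of all windows). With all 10 mice in 1 limma fit, a choice made after seeing the data, 4 of 187 windows passed (2.14%, against 3.2% of all windows), and all 4 were among the 10 DMRs. When every window with calls in all mice was counted, 43 of 180 had every OVA-induced mouse above every saline mouse (23.9%, against 18% of all windows) and 15 had every one below (8.33%, against 9.01%). The median difference over the 187 windows was 0.888 points, close to the 0.732 points over all windows tested.

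Etv5, an ETS factor that acts downstream of FGF signalling and maintains alveolar type 2 identity, carried the largest difference between OVA-induced and saline mice. Its hyper methylated intronic window (chr16:22405501-22406500, GRCm38, 33.6 kb along the gene) had 30.2%, 25.7% and 22.9% in the saline group, 40.9%, 52.5% and 54.1% under OVA and 35.2%, 44.0%, 49.1% and 47.8% under DSE. Saline mice were below all others, and the 2 OVA groups overlapped. Pooled methylation was 22.5 points above saline in the OVA-induced mice (adjusted p = 8.05e-33 in the likelihood ratio test and 0.0327 in the limma fit of all mice). The limma adjusted p in the 2 groups was 0.103. The part of this region with the most CpGs, 300 bases with 9 CpGs in capitals (chr16:22405527-22405826, − strand, the strand of the gene), holds no exon and is shown because it carries the largest difference of the 10 genes in OVA vs. saline.
Etv5 intron, OVA vs. saline region: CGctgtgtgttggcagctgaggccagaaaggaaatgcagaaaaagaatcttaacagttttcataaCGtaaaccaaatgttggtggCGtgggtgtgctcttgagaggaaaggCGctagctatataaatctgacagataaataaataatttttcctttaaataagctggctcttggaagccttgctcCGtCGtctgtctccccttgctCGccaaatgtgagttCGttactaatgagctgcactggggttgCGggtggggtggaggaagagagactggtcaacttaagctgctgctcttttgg
A second hyper methylated intronic window lay nearer the start (chr16:22429501-22430500), at 31.7%, 33.3% and 34.9% in the saline group, 43.9%, 48.4% and 46.6% under OVA and 50.05%, 50.7%, 44.8% and 48.4% under DSE. Here too the saline mice were lowest without overlap (difference 12.8 points, limma adjusted p = 0.032 in the fit of all mice and 0.106 in the 2 groups). In the opposite direction, a window over an exon 3.57 kb from the start (chr16:22435501-22436500) fell from 38.4%, 41.1% and 38.6% in saline to 34.0%, 26.0% and 18.3% in OVA-induced mice, with 21.8%, 33.1%, 35.0% and 31.8% in DSE-treated mice. This decrease of pooled methylation (-13.0 points, adjusted p = 2.75e-05) had a limma adjusted p of 0.133 in the fit of all mice and 0.184 in the 2 groups. Without OVA replicate 3 it was -9.80 points, under the threshold.

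**Figure D2:**
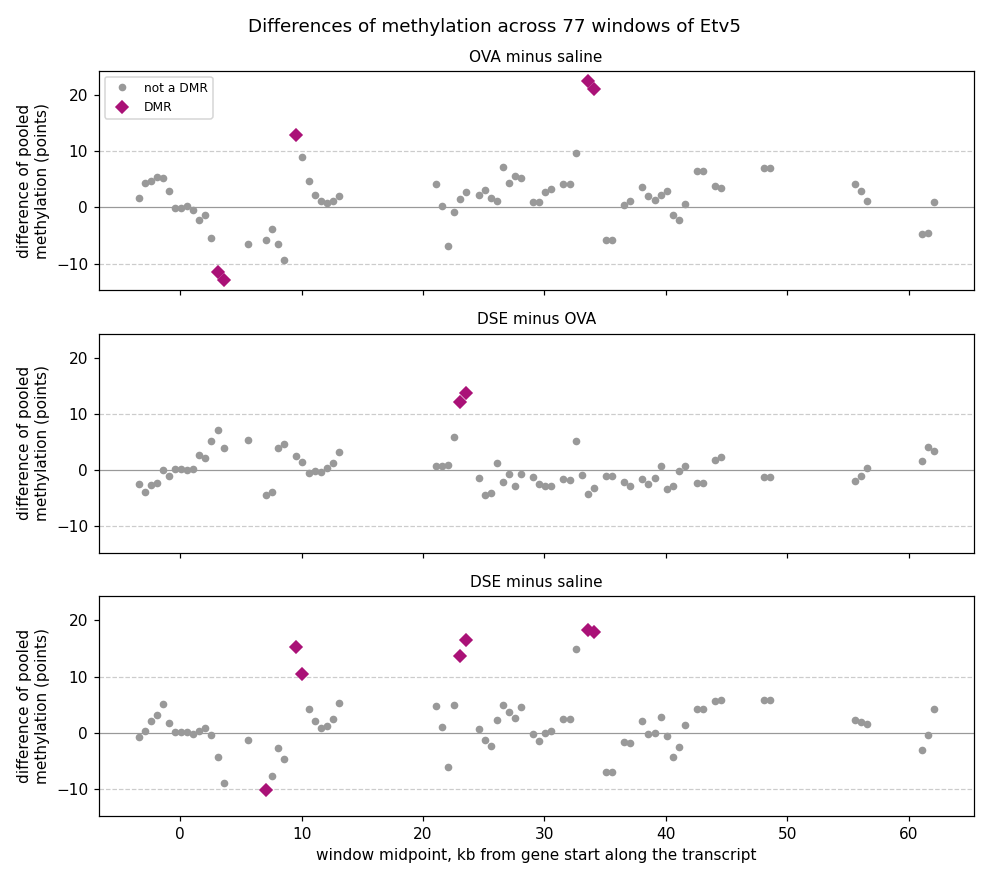
Differences of pooled CpG methylation in percentage points (y axis) at the 77 windows of Etv5 against the distance in kb from the gene start (x axis), for OVA minus saline, DSE minus OVA and DSE minus saline. Diamonds are DMRs and dashed lines mark 10 points; differences at the start are near 0, the largest rise of 22.5 points in OVA-induced mice lies 33.6 kb along the gene, and the 2 DMRs of DSE vs. OVA lie at 23.1 and 23.6 kb.

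Sftpb, the surfactant protein without which breathing at birth fails, had 2 overlapping hypo methylated windows among its 9. The mean of the 9 did not separate the groups, at 69.6% ± 1.08 in saline, 69.1% ± 1.41 under OVA and 68.8% ± 1.35 under DSE (SD, n = 3, 3 and 4). Its exact permutation p was 0.7 for OVA vs. saline. Only 3 of the 9 windows lay inside the gene, and the middle one shares calls with both others. OVA minus saline was -2.70, -10.6 and -13.6 points. At chr6:72306001-72307000, the window with -2.70 points, the mice of the groups overlapped (adjusted p = 0.299 in the likelihood ratio test). The 5 windows that were higher under OVA all lay downstream of the gene. Both DMRs lay inside the gene over exons (chr6:72306501-72307500 and chr6:72307001-72308000). In the second, methylation was 58.2%, 58.2% and 56.1% in saline mice and 48.7%, 45.0% and 37.2% in OVA-induced mice. The difference of pooled methylation was -13.6 points (adjusted p = 9.71e-22, limma adjusted p = 0.0532 in the fit of all mice and 0.134 in the 2 groups). In the DSE-treated mice methylation was 45.3%, 40.1%, 46.7% and 46.9%, so all 7 mice given OVA lay below the 3 saline mice. The first window overlaps it and had 61.2% ± 1.92 (SD, n = 3), 50.5% ± 4.16 (SD, n = 3) and 51.1% ± 3.21 (SD, n = 4); its difference between OVA-induced and saline mice, -10.6 points, was -8.27 points without OVA replicate 3 and -9.96 points without saline replicate 1. Without OVA replicate 3, 1 of the 4 hypo methylated windows of the 10 genes was left, the second Sftpb window. The 300 bases of the stretch shared by both windows with the most CpGs (chr6:72307001-72307300, + strand, 7 CpGs in capitals, with coding exon but no untranslated bases) are shown as the one hypo methylated stretch at a surfactant protein.
Sftpb gene body: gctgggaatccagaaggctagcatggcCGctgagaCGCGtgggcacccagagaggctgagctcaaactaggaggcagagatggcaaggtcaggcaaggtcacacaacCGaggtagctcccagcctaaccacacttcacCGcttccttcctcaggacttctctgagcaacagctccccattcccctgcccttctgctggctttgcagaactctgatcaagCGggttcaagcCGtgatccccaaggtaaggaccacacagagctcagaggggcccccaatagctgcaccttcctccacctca

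At Sftpc the 2 hyper methylated windows lay downstream of the gene, within Bmp1 (chr14:70515001-70516000 and chr14:70515501-70516500). The second had 50.2%, 45.7% and 50.6% in the saline group, 58.0%, 63.1% and 61.1% under OVA and 62.8%, 60.5%, 56.7% and 62.5% under DSE (OVA minus saline 11.7 points, adjusted p = 1.82e-12, limma adjusted p = 0.0491 in the fit of all mice). Its limma adjusted p for OVA vs. saline in the 2 groups was 0.126. The first differed by 11.6 points, but by 9.60 points without OVA replicate 2 and 9.07 points without saline replicate 2. Averaged over its 16 windows with enough calls in every mouse, Sftpc had 47.1%, 45.6% and 47.4% in the saline group, 49.4%, 49.9% and 51.0% under OVA and 48.5%, 48.7%, 48.6% and 51.4% under DSE, with no overlap between saline and either OVA group. The mean differences of 3.39 and 2.58 points from saline had exact permutation p values of 0.1 and 0.0571, the smallest possible. Most of the averaged windows overlap Bmp1, the 2 DMRs among them. At the start window of Sftpc itself the difference from saline was -1.97 points under OVA and -2.40 points under DSE. The lowest window assigned to the gene, at 4.58 kb from its start and inside a CpG-rich part of Bmp1, was at 0.694% in the 2 saline mice with enough calls.

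Abca3, the transporter that loads phospholipid into lamellar bodies, had 1 hyper methylated window in an intron (chr17:24355001-24356000). Its values were 40.8%, 33.0% and 39.4% in the saline group, 55.1%, 47.2% and 52.1% under OVA and 51.8%, 46.8%, 46.3% and 54.2% under DSE, and saline mice lay below the rest (OVA minus saline 13.4 points, adjusted p = 9.2e-12, limma adjusted p = 0.0583 in the fit of all mice). The limma adjusted p for OVA vs. saline in the 2 groups was 0.132. The neighbouring window, with only 19 to 85 calls per mouse, was 37.9%, 40.0% and 56.8% in saline mice and 65.9% and 63.3% in the 2 OVA-induced mice with enough calls. This difference of 19.0 points did not pass the likelihood ratio test (adjusted p = 0.0397; exact permutation p = 0.2). The lowest window of Abca3 lay at the neighbouring start of D330041H03Rik and Rnps1 (0.701% in saline mice), and the windows over its own start also overlapped Abca17.

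Nkx2-1, the homeodomain factor that drives surfactant genes and lung epithelial identity, had no DMR, and none of its windows was above 10% in any mouse. Methylation averaged over its 14 windows was 2.45%, 2.19% and 2.37% in the saline group, 3.10%, 3.37% and 3.42% under OVA and 3.19%, 3.75%, 3.39% and 3.73% under DSE, with no overlap between saline and either OVA group. Means were 2.34% ± 0.135, 3.30% ± 0.175 and 3.51% ± 0.269 (SD, n = 3, 3 and 4). All 14 windows had a higher mean under OVA than under saline. In 5 of the 14 every OVA-induced mouse lay above every saline mouse, which held for 18% of all windows. These 5 are consecutive, overlapping windows with pooled differences of 0.805 to 1.62 points. The exact permutation p of the gene mean was 0.1 for OVA vs. saline and 0.0571 for DSE vs. saline. These 14 windows share calls and are not independent, and over all windows of the series the median difference went the same way, by 0.732 points. The window at the 3′ end of the gene (chr12:56532001-56533000) was the lowest in saline mice, 0.725%, 2.38% and 0%, and had 4.42%, 2.26% and 5.18% in OVA-induced and 4.73%, 6.92%, 7.52% and 4.71% in DSE-treated mice. It was 5.04 points higher in DSE-treated than in saline mice (adjusted p = 1.57e-05, limma adjusted p = 0.034 in the fit of all mice and 0.0555 in the 2 groups), below the 10 points that a DMR needs.

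**Figure D3:**
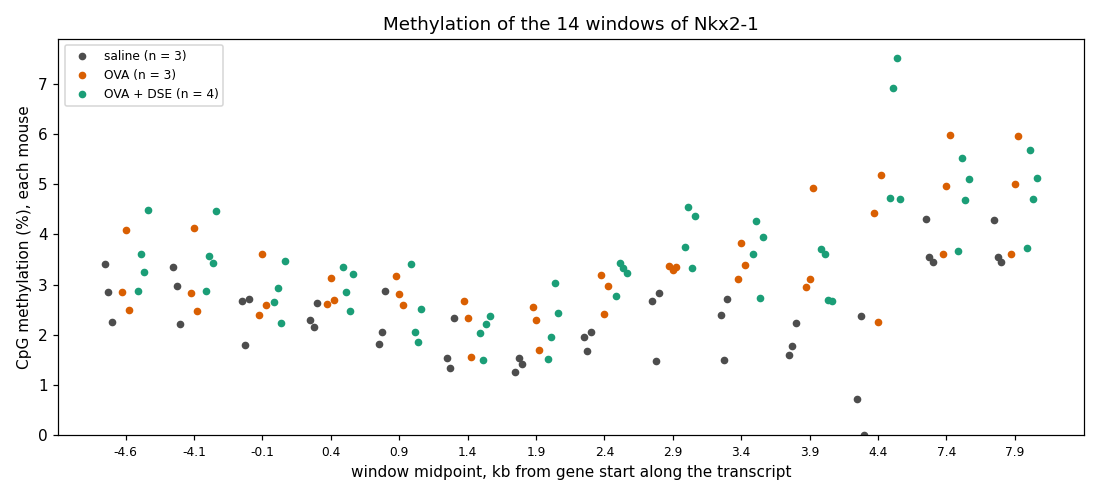
CpG methylation in percent of each mouse (y axis) at the 14 windows of Nkx2-1, ordered by the distance in kb of the window midpoint from the gene start along the transcript (x axis). Saline mice are grey, OVA-induced mice orange and DSE-treated mice green; all values are under 10%, and at the windows from 1.91 to 3.91 kb the saline mice sit below the OVA-induced mice.

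Lpcat1 and Sftpa1 had no DMR. Averaged over windows, Lpcat1 was 40.3% ± 0.178 in saline, 40.4% ± 0.812 under OVA and 40.6% ± 0.862 under DSE, and its lowest window was an intronic one near its 3′ end at 0.632%. The windows of Sftpa1 had 49.6% ± 4.30, 49.1% ± 3.47 and 46.6% ± 3.45, and its lowest window, 3.29 kb upstream, was 34.2% in saline mice. In both genes the groups overlapped in every comparison of the gene mean. Etv5 as a whole was 61.0% ± 0.975, 62.6% ± 0.579 and 62.7% ± 0.500, with exact permutation p values of 0.2 for OVA vs. saline and 0.0571 for DSE vs. saline. The p values of the gene means come from 24 comparisons and are not adjusted.

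**Figure D4:**
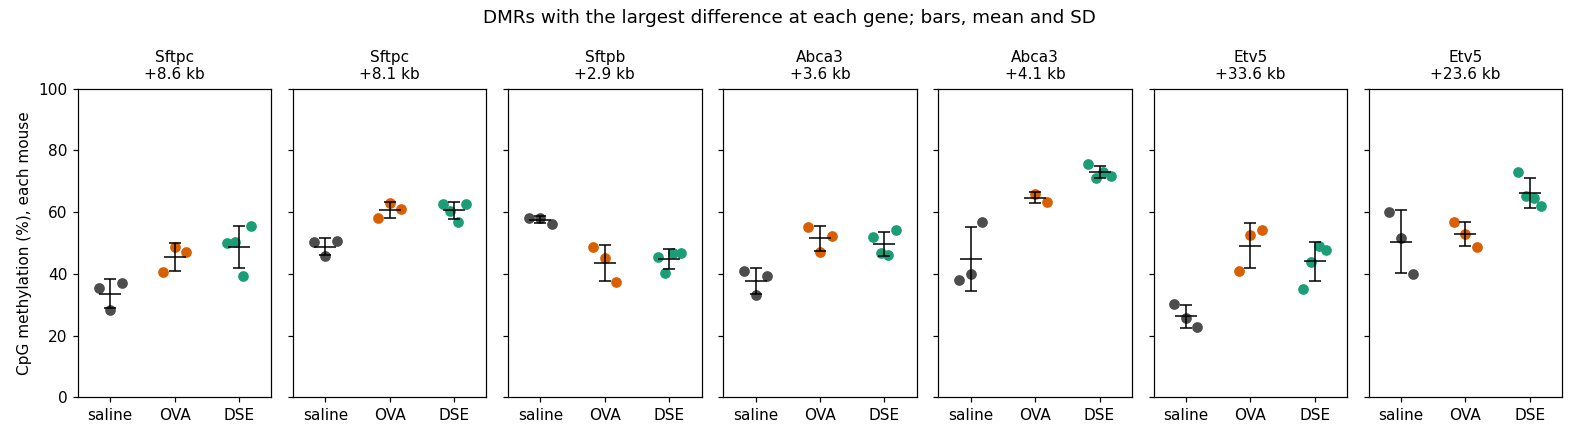
CpG methylation in percent of each mouse (y axis, points) in the 3 groups (x axis) at the DMR with the largest difference of each gene in any comparison, titled with its distance in kb from the gene start; horizontal lines are means and whiskers SD. Saline mice lie below all OVA-induced and DSE-treated mice at Sftpc, Abca3 and the Etv5 window at 33.6 kb and above them at Sftpb, while at the Etv5 window at 23.6 kb the DSE-treated mice are highest. At the Abca3 window at 4.08 kb 1 OVA-induced mouse had too few calls.

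The comparison of DSE-treated with OVA-induced mice asks which of these windows changed with the extract. Of 188 windows tested, 2 were hyper methylated in DSE-treated mice (1.06%, against 0.898% of all windows) and none was hypo methylated (against 0.725% of all windows). Counting windows with calls in all mice, 5 of 184 had every DSE-treated mouse above every OVA-induced mouse (2.72%, against 5.65% of all windows) and 11 had every one below (5.98%, against 4.59%). Both DMRs lay in 1 intronic region of Etv5. In the first window (chr16:22415501-22416500) methylation was 56.8%, 53.1% and 48.8% in OVA-induced mice and 73.0%, 65.2%, 64.4% and 61.9% in DSE-treated mice. The saline mice, at 60.0%, 51.5% and 39.9%, spread over the values of the OVA-induced mice and lay below every DSE-treated mouse. The pooled difference was 13.8 points from OVA-induced mice (adjusted p = 4.16e-05) and 16.4 points from saline mice (adjusted p = 1.18e-07), whereas OVA-induced and saline mice differed by 2.70 points (adjusted p = 0.561 in the same likelihood ratio test; exact permutation p = 0.8). Without saline replicate 3 the difference from saline was 9.31 points, under the threshold. The limma adjusted p for DSE vs. OVA was 0.246 in the 2 groups and 0.345 in the fit of all mice, with an exact permutation p of 0.0571, the lowest value 3 mice against 4 can reach. The overlapping window differed by 12.1 points. No window of the 10 genes passed limma at an adjusted p under 0.05 in this comparison, neither with all mice (against 0.382% of all windows) nor in the 2 groups (against 0.0894%), and in the 2-group limma fit 10 of 188 had an unadjusted p under 0.05 (5.32%, against 9.66% of all windows). This region is shown as the only one of the 10 genes that passed in DSE vs. OVA (chr16:22416183-22416482, − strand, 4 CpGs in capitals, no exon).
Etv5 intron, DSE vs. OVA region: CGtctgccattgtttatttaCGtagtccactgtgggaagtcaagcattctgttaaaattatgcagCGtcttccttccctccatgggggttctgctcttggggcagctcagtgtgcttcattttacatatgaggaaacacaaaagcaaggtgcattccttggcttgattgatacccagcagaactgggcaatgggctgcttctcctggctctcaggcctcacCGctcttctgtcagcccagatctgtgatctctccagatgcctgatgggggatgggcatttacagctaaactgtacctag

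At the windows that differed between OVA-induced and saline mice, the DSE-treated mice are given side by side with the others because both comparisons share the OVA-induced mice. At the 6 hyper methylated windows DSE minus OVA ranged from -4.27 to 3.75 points, and DSE minus saline from 11.9 to 18.3 points. At the 4 hypo methylated windows DSE minus OVA ranged from 0.562 to 7.21 points and DSE minus saline from -12.6 to -4.21 points. The largest of these DSE minus OVA differences, 7.21 points, was at the exonic Etv5 window chr16:22436001-22437000, with 52.2%, 48.7% and 53.5% in the saline group, 44.3%, 41.7% and 33.3% under OVA and 51.1%, 45.0%, 47.5% and 45.7% under DSE (adjusted p = 0.00712, limma adjusted p = 0.452 in the fit of all mice). It did not reach 10 points, and every DSE-treated mouse lay above every OVA-induced mouse.

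DSE-treated and saline mice differed in 10 hyper methylated windows of 187 tested (5.35%, against 4.95% of all windows) and 3 hypo methylated ones (1.6%, against 3.07%). The hyper methylated windows lay at Etv5 (6), Sftpc (2) and Abca3 (2), and the hypo methylated ones at Sftpb (2) and Etv5 (1). In 12 of the 13 the 2 groups did not overlap, which is not independent of the choice of these windows. The limma test in the 2 groups called 7 windows of the 10 genes at an adjusted p under 0.05 whatever the size of the difference (3.74%, against 4.59% of all windows). The fit of all mice called 10, of which 7 were DMRs (5.35%, against 6.59% of all windows). In 33 of 182 windows every DSE-treated mouse lay above every saline mouse (18.1%, against 16.3% of all windows), and in 5 every one lay below (2.75%, against 7.83%). The largest difference was at the Abca3 window of low depth (chr17:24355501-24356500), with 37.9%, 40.0% and 56.8% in saline and 75.7%, 71.2%, 72.9% and 71.7% in DSE-treated mice (26.9 points, adjusted p = 3.16e-05, limma adjusted p = 0.0136 in the fit of all mice). At the Etv5 intron at 33.6 kb the difference was 18.3 points (limma adjusted p = 0.0329 in the fit of all mice), at the second Sftpb window -12.6 points (limma adjusted p = 0.0412) and at the first Sftpc window 15.4 points (limma adjusted p = 0.0524). The 1 DMR whose groups overlapped was an Etv5 window of intron (chr16:22432001-22433000), at 69.2%, 60.8% and 62.3% in saline and 50.9%, 44.7%, 65.5% and 60.3% in DSE-treated mice (-10.2 points). Of the 3 hypo methylated windows, 1, the second Sftpb window, was left without DSE replicate 1, without DSE replicate 2 and without saline replicate 1. The Etv5 window was then -8.85, -6.71 and -7.13 points.

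A second list held other genes of surfactant and alveolar type 2 cells. Of its 15 genes 13 had windows. Of 283 windows tested in OVA-induced vs. saline mice, 1 was hyper methylated (0.353%, against 4.75% of all windows). Hypo methylated were 5 (1.77%, against 2.56% of all windows). The hypo methylated ones lay at Ctsh (2), a cathepsin that processes surfactant proteins, Fgfr2 (2), a receptor of FGF signalling, and Muc1 (1), which also had the hyper methylated one. In DSE vs. OVA 1 of 283 was hyper methylated (0.353%, against 0.898% of all windows) and 2 hypo methylated (0.707%, against 0.725%). In DSE vs. saline 3 of 284 were hyper methylated (1.06%, against 4.95% of all windows) and 11 hypo methylated (3.87%, against 3.07%). Among the 11 were 3 at Scd1, which desaturates fatty acids, and 3 at Cebpa, a transcription factor of alveolar type 2 cells. None of the 12 start windows of this list was a DMR. The start of Slc34a2, the phosphate transporter of alveolar type 2 cells, was 4.48% ± 0.441 in saline, 7.05% ± 1.37 under OVA and 6.62% ± 1.88 under DSE (SD, n = 3, 3 and 4). The 12 starts did not move alike. OVA minus saline ranged from -0.886 points at Ctsh to 3.78 points at Srebf1, with 2.39 points at Slc34a2. Ctsh, Muc1 and Pcyt1a were lower under OVA than under saline.

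Windows at marker genes of other lung cells were counted in the same way. Of 124 windows at 9 leukocyte genes, 20 were hypo methylated in OVA-induced vs. saline mice (16.1%, against 2.56% of all windows) and 1 hyper methylated, and 22 and 2 in DSE-treated vs. saline mice (17.7% hypo methylated, against 3.07%). Of the 20, 13 lay at Ptprc, the common leukocyte antigen CD45, and 5 at Laptm5. The Ptprc start window was 59.8%, 52.1% and 55.2% in the saline group, 45.8%, 45.2% and 41.9% under OVA and 46.2%, 36.1%, 38.9% and 39.2% under DSE. Averaged over the 6 leukocyte start windows with calls in all mice, methylation was 48.2% to 49.4% in saline, 41.6% to 45.7% under OVA and 41.5% to 44.3% under DSE, with no overlap between saline and the rest. The 6 starts did not move alike. OVA minus saline was -11.8 points at Laptm5, -11.1 at Ptprc and -5.71 at Cd68, but -2.14 at Cd3d, -0.278 at Coro1a and 1.24 at Cd79a, and only the first 2 were DMRs. Of 99 windows at 5 endothelial genes, 21 were hyper methylated in OVA-induced vs. saline mice (21.2%, against 4.75% of all windows) and 0 hypo methylated, and 18 and 0 in DSE-treated vs. saline mice (18.2% hyper methylated, against 4.95%). The hyper methylated shares of the next 4 lists in OVA vs. saline lay nearer to that of all windows, between 4% and 6.73%. At 6 alveolar type 1 genes the numbers were 9 and 0 of 138, at 4 airway genes 2 and 0 of 49, at 5 genes of fibroblasts and muscle 7 and 1 of 104, and at 8 genes of other tissues 4 and 3 of 100, all for OVA vs. saline. In DSE vs. OVA no window of the 123 tested at leukocyte genes or the 99 at endothelial genes was a DMR. Of all windows only 0.898% were hyper methylated and 0.725% hypo methylated in that comparison. The part of these changes in the DMRs at the alveolar type 2 genes was not tested.

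**Figure D5:**
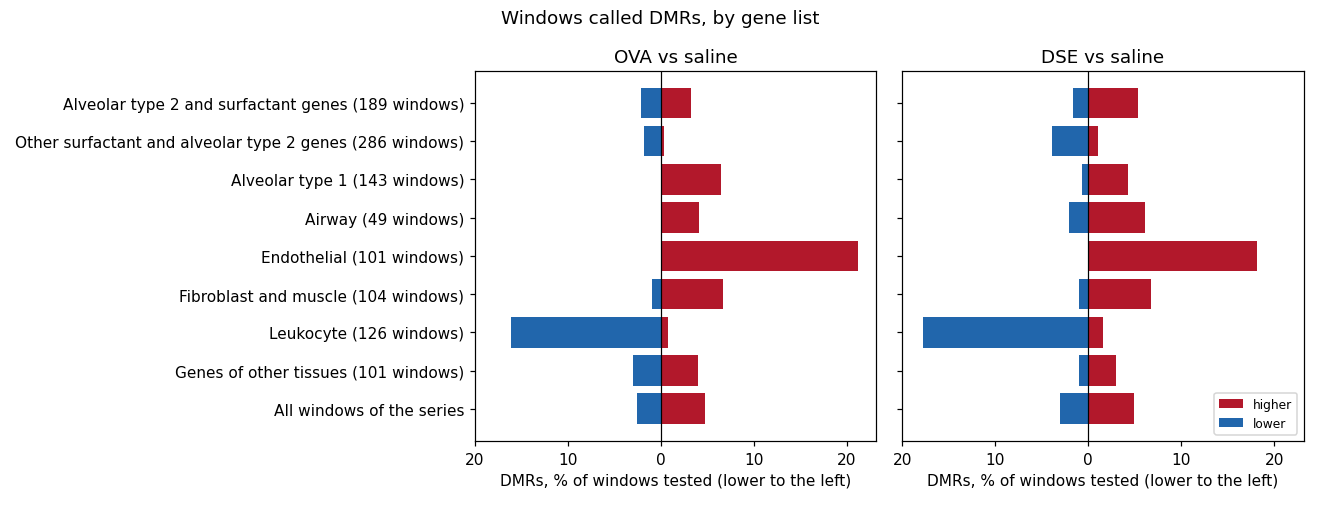
Share of tested windows that were DMRs, in percent (x axis, higher in the first named group to the right in red, lower to the left in blue), for each gene list and for all windows of the series (y axis), in OVA vs. saline and DSE vs. saline. Leukocyte genes extend furthest to the left and endothelial genes furthest to the right, while the alveolar type 2 and surfactant genes, at 3.21% and 2.14% in OVA vs. saline, lie near the bar of all windows.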

How the data were processed

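The samples were Methyl-seq libraries of lung DNA, 1 for each of 10 mice. The authors deposited raw counts of methylated and unmethylated CpG calls per mouse for 1000 bp windows placed every 500 bp, without normalization; per the submitters' processing notes reads were trimmed with cutadapt 1.10, mapped to mm10 with Bismark 0.19.0 and summed with methylKit 1.0.0, and the methods of the study name other versions. Herb in the labels was taken as DSE. Coverage ranged from 306656737 to 410836272 calls per mouse. The chi-square between the calls of replicate mice averaged 2.64 to 3.76 per window, above the 1 of counting error, so no replicate pair agreed within counting error.

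A mouse needed 20 calls in a window, and each group 2 such mice. Percent methylation was methylated over all calls. A logistic likelihood ratio test of pooled calls, limited to the mice of the compared groups, ran on the whole table with Benjamini-Hochberg adjustment. It leaves out the spread between mice, so limma 3.58.1 (R 4.3.3) on M-values (log2, pseudocount 1) and exact two-sided permutation tests of the percentages stand beside it. Python 3.11.15, numpy 2.4.6 and scipy 1.17.1 were used. The tests were also run on simulated calls with planted differences larger than any OVA vs. saline DMR here. Recovery of smaller differences was therefore not checked. Windows named are, for each gene, the start window, the lowest in saline mice and the largest DMR of each comparison; other windows named in the text were chosen after their values were seen. Members, lists and tests were chosen with earlier results of these data known. RNA-seq was not analysed here, and results at the windows of Napsa are not reported here one by one.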

Additional observations from a re-analysis of the deposited data

Results flagged for a closer look

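In the DSE-treated group of 4 mice, 27 gene means and window values, with those of Napsa included, were searched for a mouse far from the other 3. Such a mouse was found in 3 of them, and chance alone gives one in about 1 of 20 groups. DSE replicate 4 stood apart in the mean of the Sftpc windows, with 51.4% against 48.5% to 48.7% in the other 3 mice. The same mouse stood apart in the mean of the Sftpb windows, with 70.8% against 68.0% to 68.4%. DSE replicate 1 was lowest in the mean of the Lpcat1 windows, with 39.3% against 40.9% to 41.0%.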

How the results depend on the processing

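The numbers of DMRs at the 10 genes were 10, 2 and 13 for OVA vs. saline, DSE vs. OVA and DSE vs. saline, the order kept below. They stayed within 1.5 times of these values when at least 50 calls were asked, without any minimum, with all 10 mice covered, with scaled calls, unweighted means, no flank, a 10 kb flank and the replicate block (10, 2 and 13 with the block). Tests that include the spread between mice gave fewer. An F test that scales for overdispersion gave 0, 0 and 0, limma in the 2 groups gave 0, 0 and 0 at an adjusted p under 0.01 and 0, 0 and 6 at 0.05, and limma with all 10 mice in 1 fit, added after seeing the data, gave 4, 0 and 7; all 4 of the first and 6 of the last 7 were hyper methylated. At an unadjusted p under 0.05, limma in the 2 groups had 34, 10 and 43 windows of the 10 genes (18.2%, 5.32% and 23%, against 19.2%, 9.66% and 24.2% of all windows). A difference of at least 20 points left 2, 0 and 1, and windows that do not overlap, which are 94, 95 and 94 in number, left 5, 1 and 7. Leaving out 1 mouse at a time gave 7 to 11, 2 to 3 and 10 to 15. No called difference at a named window changed sign under any alternative run. Same-numbered mice of different groups did not deviate together (correlations of -0.0273 to 0.0785), so the numbers were not taken as pairs. With the calls of all windows of a gene pooled, 21 of 24 group means moved by more than 1 SD: Abca3 was 16.5% in saline mice, and Sftpb was 73.5% in saline, 71.9% under OVA and 73.6% under DSE. The number of mice limits what can be shown. With every mouse of both groups, exact permutation p values cannot go below 0.1 or 0.0571, whereas counting error at the median depth is small.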
